A study of Mus musculus with 16 samples.

Results

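Il4ra and Il21r, neighbouring cytokine receptor genes on mouse chromosome 7, were examined as partners of a chosen DNA break. A junction was counted for either gene when its prey lay on chromosome 7 and the deposited gene label was exactly Il4ra or Il21r. There were 338 such junctions, 252 in Il4ra and 86 in Il21r, of 33479 junctions outside chromosome 15 and 141167 in all. High-throughput genome-wide translocation sequencing (HTGTS) had mapped the prey, the genomic ends that joined to breaks made at Myc on chromosome 15. The cells were IgM+ B cells from spleen, in which intron 1 of a single Myc allele carried 25 sites for I-SceI, a rare-cutting nuclease delivered by retrovirus.

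Of the 16 libraries, 6 came from cells cultured with 2 µg/mL of anti-RP105, with infection at 48 h and harvest at day 5, 3 of them labelled ATM-/- and 3 labelled WT. The other 10 came from cells cultured with anti-CD40 at 1 µg/mL and IL4 at 20 ng/mL, with infection at 24 h and harvest at day 4. These were ATM-/- (n = 3), WT treated with KU55933 at 10 µM (n = 3) and untreated WT (n = 4). All groups carried the I-SceI cassette, and the mice were 6 to 8 weeks old. The germline loss of ATM was present throughout development, whereas the inhibitor was present only in culture. The labels did not say whether replicates were separate mice, so p-values measure the spread between these libraries.

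Il4ra encodes the alpha chain of the IL-4 receptor, which pairs with the common gamma chain and signals through JAK kinases to STAT6. In B cells, IL-4 directs class switching to IgG1 and IgE. Il21r encodes the ligand-binding chain of the IL-21 receptor, which shares the gamma chain, signals mainly through STAT3 and acts in germinal centre responses. AID, the cytidine deaminase that starts class switching, also breaks DNA at some transcribed genes outside the immunoglobulin loci, mostly just downstream of their starts. ATM is a kinase that signals double-strand breaks, and KU55933 inhibits it.

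The libraries held 4484 to 18264 junctions, of which 586 to 5604 lay outside chromosome 15. The 7 untreated anti-CD40/IL4 libraries were sequenced on 454 and the 9 KU55933 and RP105 libraries on MiSeq, and in comparisons between these sets the sequencer cannot be told apart from the treatment or stimulus. Under RP105, 9.30% to 10.8% of junctions lay outside chromosome 15 in libraries labelled ATM-/- and 21.3% to 22.3% in libraries labelled WT, whereas under anti-CD40/IL4 the order was the other way round, 28.4% to 34.0% in ATM-/- and 15.4% to 18.9% in WT. RP105 genotypes are therefore given as labelled. Whether these labels are exchanged was not tested, and every RP105 value by genotype depends on them. Libraries of 1 sequencing run shared prey positions: KU55933 replicates 1 and 2 had 186 positions and strands in common, 5 of them in Il4ra, and the RP105 libraries numbered 3 of both labels had 142 in common (12.3% of those in the library labelled ATM-/-), 2 of them in Il4ra. Pairs from the same run shared 1.23% to 12.3% of the smaller library's positions, and pairs from different runs 0% to 4.10%. Values without positions shared within a run are given beside the results below. The lists hold no expression values, so the labelled cell type was not checked by markers. Junctions at the switch regions of class switching led the labelled genes in the anti-CD40/IL4 libraries, with 111 at Sg1 and 111 at Smu in ATM-/-, 522 and 449 with KU55933, and 132 and 205 in WT.

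The Il4ra sequence in which junctions lay closest together is given first, because it shows where along the gene the breaks joined. It is the 200-base window with most junctions among bases read in the deposited lists, on mm9, plus strand. Capitals mark bases at which at least 1 junction ended. The Il4ra window, chr7:132696446-132696645, begins 661 bases after the gene start and held 28 junctions from 7 libraries (4 from ATM-/-, 21 from KU55933 and 3 from WT), at 27 bases.
Il4ra window: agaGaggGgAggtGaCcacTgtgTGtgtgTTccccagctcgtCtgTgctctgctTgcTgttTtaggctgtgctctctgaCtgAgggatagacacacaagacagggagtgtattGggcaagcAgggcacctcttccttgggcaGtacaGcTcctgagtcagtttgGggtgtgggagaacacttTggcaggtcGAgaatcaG
The ends were scattered over the window, with no base that held most of the junctions. AGCT, the sequence most favoured by AID in switch regions, occurs 2 times in the Il4ra window. Of 32851 RefSeq promoter entries, 62.5% hold at least 1 AGCT in their first 200 bases. Those bases lie upstream of the start, whereas the window lies inside the gene. The whole promoter entry of Il4ra holds 5 AGCT and that of Il21r 0, and 77.6% of all entries hold at least 1. In the 5594 read bases of the first 8 kb of Il4ra there were 25 AGCT, and 14.6% of 247 junctions lay within 10 bases of one, against 10.2% of the bases. In Il21r there were 12 AGCT in 3209 read bases, and 5.95% of 84 junctions lay within 10 bases of one, against 8.88% of the bases. AGCT reads the same on both strands. The bases read are those that junctions reached, so these shares describe the lists and carry no test.

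The RefSeq promoters (build GRCm38.p6, 300 bases across the start, plus strand) are shown because their ends placed both gene starts on mm9. Capitals mark the last 29 bases of the Il4ra sequence and the last 30 of the Il21r sequence, which were also read in junctions. The starts fell at mm9 chr7:132695785 for Il4ra and chr7:132746943 for Il21r, and both genes lie on the plus strand.
Il4ra promoter, chr7:125552021-125552320: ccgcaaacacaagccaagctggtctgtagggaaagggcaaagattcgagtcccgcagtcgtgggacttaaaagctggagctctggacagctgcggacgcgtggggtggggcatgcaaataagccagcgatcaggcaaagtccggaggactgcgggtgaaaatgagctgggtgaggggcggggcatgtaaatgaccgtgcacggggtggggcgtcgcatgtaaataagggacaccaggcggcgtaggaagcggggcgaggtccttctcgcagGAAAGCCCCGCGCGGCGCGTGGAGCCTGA
Il21r promoter, chr7:125603179-125603478: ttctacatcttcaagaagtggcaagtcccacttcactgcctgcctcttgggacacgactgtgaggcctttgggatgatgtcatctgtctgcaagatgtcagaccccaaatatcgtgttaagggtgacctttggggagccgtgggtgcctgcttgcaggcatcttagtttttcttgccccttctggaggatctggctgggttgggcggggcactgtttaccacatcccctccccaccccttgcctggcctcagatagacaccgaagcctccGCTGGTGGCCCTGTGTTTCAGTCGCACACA
The octamer ATGCAAAT, searched on both strands, starts at -139 in the Il4ra promoter and is not in that of Il21r. It is in 1.74% of promoter entries. This describes letters in these windows and no binding. The spacing of exons was not used here, so junctions are given by distance from the start and not as exonic or intronic.

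Junctions in both genes began at the start and ran downstream. No junction labelled with either gene lay upstream of its start. Every junction in the 8 kb upstream had no gene label, so only counts of any label bear on this. Counting any label, the 8 kb upstream of Il4ra held 5 junctions and the 8 kb downstream 247, and the same windows at Il21r held 7 and 84. In Il4ra, successive kilobases from the start held 74, 87, 35, 26, 7, 14, 3 and 1 junctions. In Il21r they held 18, 29, 17, 15, 4 and 1, with none in the next pair. The median distance was 1535 bases in Il4ra and 1939 in Il21r, and 90.9% and 96.5% lay within 5 kb. The exceptions were few: the farthest Il21r junctions, up to 28591 bases in, came from WT libraries, and the only Il4ra junction of RP105 replicate 1 labelled ATM-/- lay at 24957 bases.

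**Figure D1:**
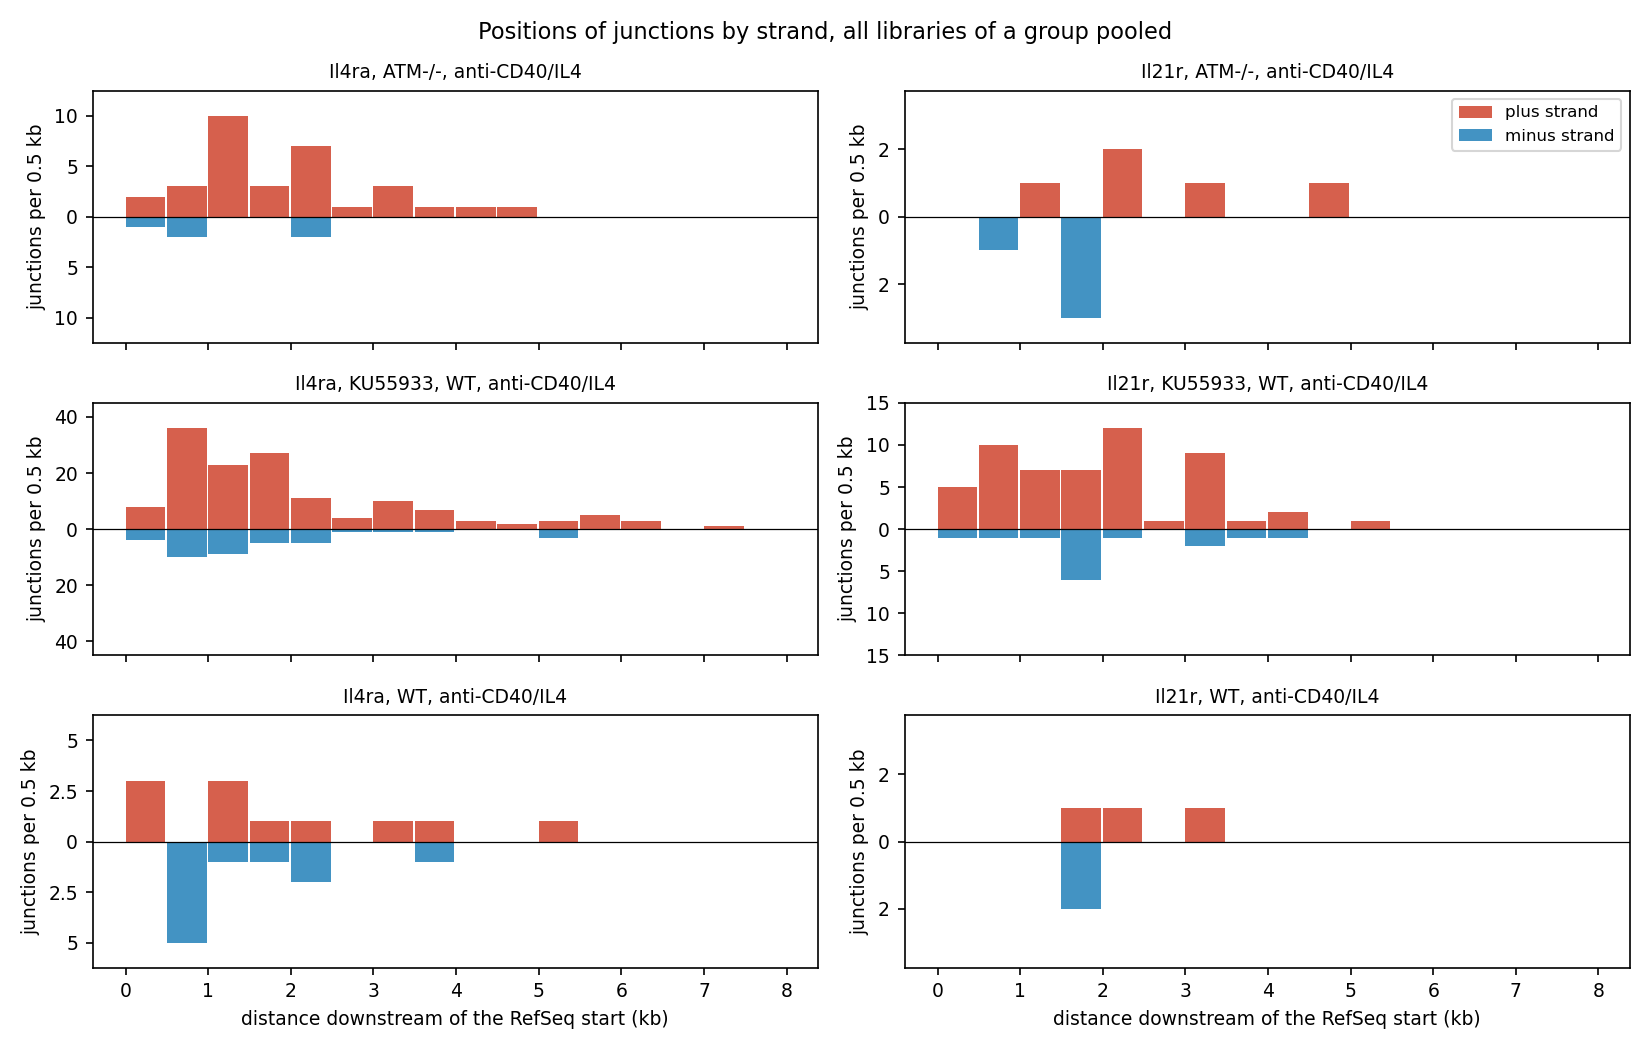
Junctions per 0.5 kb (y axis, plus strand upward, minus strand downward) by distance downstream of the RefSeq start in kb (x axis), for Il4ra (left) and Il21r (right) in ATM-/-, KU55933 and WT libraries under anti-CD40/IL4. Each panel covers the first 8 kb, pools the libraries of a group and has its own y scale. Most junctions lie in the first 3 kb, and the plus strand holds 33 of 38, 144 of 185 and 11 of 21 Il4ra junctions in the order of the rows.

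The share of a library's junctions within 2 kb of the start did not separate the groups. For Il4ra it averaged 60.9% ± 18.2 in ATM-/- (n = 3), 65.4% ± 5.66 with KU55933 (n = 3) and 76.1% ± 28.3 in WT (SD, n = 4). The Il4ra difference between KU55933 and WT was -10.8 percentage points (exact two-sided permutation p = 0.457), and that between ATM-/- and WT -15.3 points (exact permutation p = 0.429). For Il21r it averaged 33.3% ± 57.7 in ATM-/-, 54.6% ± 11.9 with KU55933 and 50.0% ± 40.8 in WT, where several libraries held 1 or 2 junctions. Both Il21r differences were within the spread (exact permutation p = 0.657 for ATM-/- and 0.83 for KU55933 against WT). Over the family of 8 tests of position and strand, every adjusted p was 0.571 or more.

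Most junctions of the region were in the receptor genes. In the window of 1.08 Mb that reached 500 kb beyond the outermost junctions there were 382 junctions, of which 88.5% were in Il4ra or Il21r. The other 44 compare with 14.2 at the mean density of the genome without chromosome 15, so the remainder of the region also stood above that mean. Nsmce1, a component of the SMC5/6 complex of DNA repair, had 7 and Gsg1l had 3. Gtf3c1, a subunit of the transcription factor TFIIIC, and D430042O09Rik had 1 each. A further 32 junctions had no gene label, 9 of them between Il4ra and Il21r.

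Per length, Il4ra held more junctions than Il21r in each anti-CD40/IL4 group. The first 8 kb of Il4ra held 0.678 junctions per kb per 1000 junctions outside chromosome 15 in ATM-/-, 1.55 with KU55933 and 0.589 in WT. The first 8 kb of Il21r held 0.165, 0.589 and 0.140 in the same groups. The mean over the genome without chromosome 15 was 0.000392, so the Il4ra stretch stood at 1731, 3964 and 1503 times that mean and the Il21r stretch at 421, 1503 and 358 times. These ratios describe stretches picked because junctions lie there, and the difference between the genes was not tested. By number of junctions per labelled gene, irrespective of length, Il4ra ranked 4 of 2442 genes in ATM-/-, 3 of 3773 with KU55933 and 4 of 1615 in WT. Il21r ranked 14, 6 and 9, the first tied among 4 genes and the last between 2.

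Treatment with KU55933 was set against no treatment to ask how inhibition of ATM bears on the receptor genes. Il4ra had 57, 77 and 51 junctions in KU55933 libraries, against 9, 1, 6 and 5 in WT libraries. As shares of junctions outside chromosome 15 these were 1.58%, 1.42% and 0.910% with KU55933, and 0.689%, 0.110%, 0.398% and 0.684% in WT. The groups did not overlap, and the lowest WT value came from 1 junction of 910. The mean was 1.30% ± 0.350 with KU55933 and 0.470% ± 0.276 in WT (SD, n = 3 and 4), a ratio of 2.77. Pooled counts gave a ratio of 2.68 with an exact 95% interval of 1.70 to 4.44 that covers counting error only. With all junctions as denominator the means were 0.424% ± 0.133 with KU55933 and 0.0815% ± 0.0494 in WT (SD, n = 3 and 4), a ratio of 5.21, again without overlap.

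Il21r showed the same order of groups on lower counts. It had 24, 24 and 21 junctions in KU55933 libraries, against 2, 2, 2 and 1 in WT libraries. The shares were 0.666%, 0.442% and 0.375% with KU55933, and 0.153%, 0.220%, 0.133% and 0.137% in WT, again without overlap. All 4 WT values rest on 1 or 2 junctions. The mean was 0.494% ± 0.152 with KU55933 and 0.161% ± 0.0405 in WT (SD, n = 3 and 4), a ratio of 3.08, and the pooled ratio was 3.0 with a counting interval of 1.38 to 7.74. Of all junctions the shares were 0.161% ± 0.0592 with KU55933 and 0.0270% ± 0.00556 in WT, a ratio of 5.96.

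Neither difference passed the test adjusted over all genes. By edgeR's quasi-likelihood test over 162 genes with at least 10 junctions, the log2 fold change of KU55933 over WT was 1.45 (SE 0.52) for Il4ra and 1.59 (SE 0.63) for Il21r. The unadjusted p was 0.00561 and 0.0117 and the Benjamini-Hochberg adjusted p 0.198 and 0.211. Of the 162 genes, 0.617% passed at an adjusted p of 0.05, and 14.2% at an unadjusted one. The median log2 fold change over all genes was 0.48. The exact permutation test of shares gave p = 0.0286 for both genes, the smallest that 3 against 4 libraries allow, and an adjusted p of 0.171 for both. Libraries separated upward like this in 16.7% of the 162 genes. Without positions shared within a run the means with KU55933 were 1.27% ± 0.318 for Il4ra and 0.511% ± 0.170 for Il21r, against 0.475% ± 0.277 and 0.162% ± 0.0394 in WT (SD, n = 3 and 4). With trimmed-mean (TMM) scaling the log2 fold changes were 2.22 and 2.34 and both genes passed (edgeR adjusted p = 0.0057 and 0.00734). That scaling moved the median of all genes up as well, and relative to the median the genes stood at 1.07 and 1.19, against 0.98 and 1.11 with junctions outside chromosome 15 as library size.

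**Figure D2:**
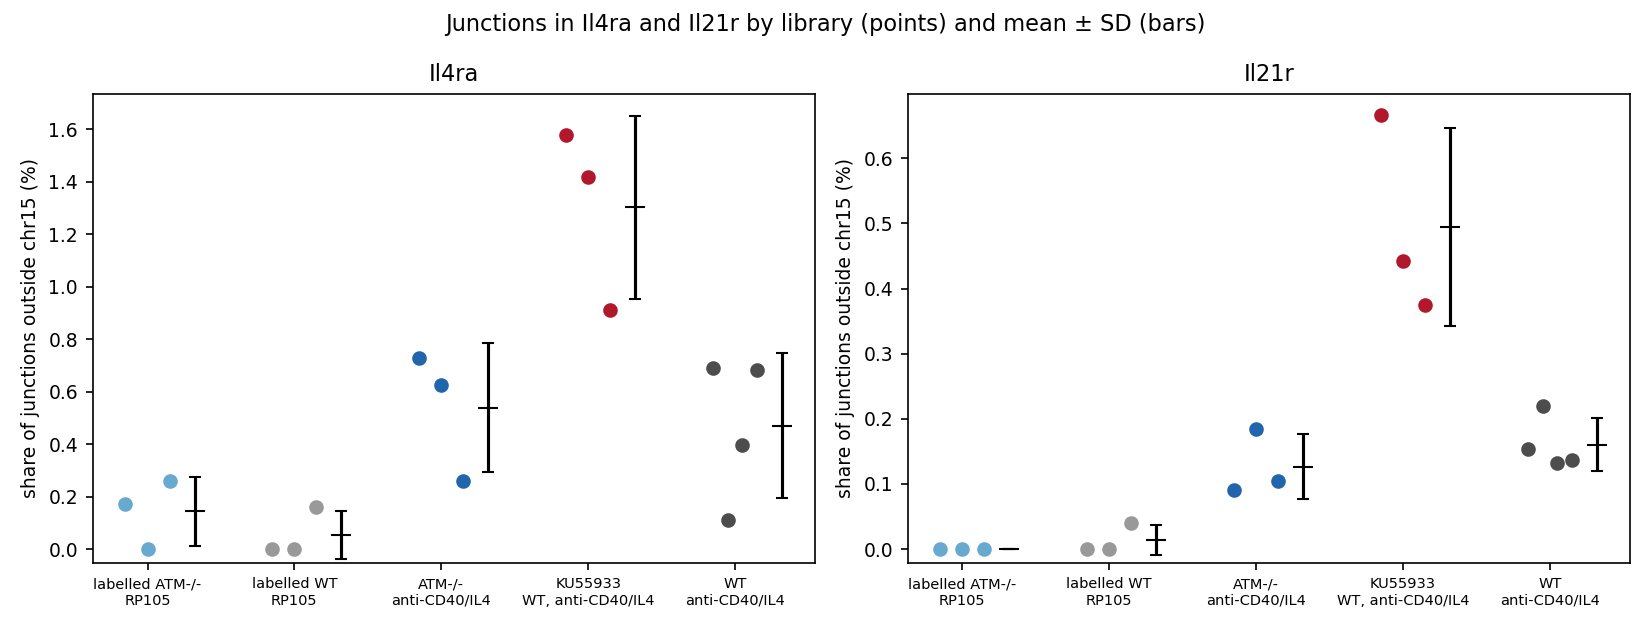
Share of junctions outside chromosome 15 (%, y axis) in Il4ra (left) and Il21r (right) for each library (points) by group (x axis), with the mean ± SD beside each group. KU55933 libraries lie between 0.910% and 1.58% for Il4ra and between 0.375% and 0.666% for Il21r, above every other library.

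Genetic loss of ATM was compared with WT under the same stimulus and on the same sequencer. Il4ra had 16, 17 and 5 junctions in ATM-/- libraries, against 9, 1, 6 and 5 in WT. The shares were 0.730%, 0.626% and 0.262% in ATM-/-, and 0.689%, 0.110%, 0.398% and 0.684% in WT, with full overlap of the groups. The means were 0.539% ± 0.246 in ATM-/- and 0.470% ± 0.276 in WT (SD, n = 3 and 4). The log2 fold change was 0.22 (SE 0.58, edgeR adjusted p = 0.981).

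For Il21r the ATM-/- libraries had 2, 5 and 2 junctions (0.0912%, 0.184% and 0.105%), against 2, 2, 2 and 1 (0.153%, 0.220%, 0.133% and 0.137%) in WT. The means were 0.127% ± 0.0503 in ATM-/- and 0.161% ± 0.0405 in WT (SD, n = 3 and 4), and the log2 fold change was -0.26 (SE 0.80, edgeR adjusted p = 0.981). The pooled ratios of ATM-/- to WT were 1.18 for Il4ra (counting interval 0.677 to 2.12) and 0.840 for Il21r (0.279 to 2.66). Both intervals include equal shares. Of all junctions, Il4ra averaged 0.166% ± 0.0666 in ATM-/- and 0.0815% ± 0.0494 in WT (SD, n = 3 and 4), a ratio of 2.03 with overlapping groups, and Il21r 0.0402% ± 0.0171 in ATM-/- and 0.0270% ± 0.00556 in WT, a ratio of 1.49. With TMM scaling the Il4ra log2 fold change was 0.95 (edgeR adjusted p = 0.446). In this comparison 0% of 162 genes passed at an adjusted p of 0.05, 4.94% at an unadjusted one, and DESeq2 also passed none. Within the sequencing runs that held both genotypes, Il4ra had 0.626% in ATM-/- and 0.398% in WT in one, and 0.262% in ATM-/- and 0.684% in WT in the other. Leaving out ATM-/- replicate 1 or WT replicate 2 turned the sign of the Il4ra estimate, to -0.04 and -0.07.

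ATM-/- and KU55933 libraries were also set against each other. Il4ra averaged 0.539% ± 0.246 in ATM-/- and 1.30% ± 0.350 with KU55933, and Il21r 0.127% ± 0.0503 in ATM-/- and 0.494% ± 0.152 with KU55933 (SD, n = 3 each). No ATM-/- library reached the lowest KU55933 library for either gene. The log2 fold change of ATM-/- over KU55933 was -1.24 (SE 0.51, edgeR adjusted p = 0.271) for Il4ra and -1.85 (SE 0.60, edgeR adjusted p = 0.179) for Il21r. Neither passed, and 0% of the 162 genes did (10.5% at an unadjusted p of 0.05). Same-numbered libraries of these groups deviated together (correlations of 0.45, 0.14 and 0.55). They came from different sequencing runs, and libraries with unlike numbers were not compared in this way. With the replicate number as a block Il21r passed (log2 -1.85, edgeR adjusted p = 0.0422, 2 genes passing in place of 0), whereas Il4ra did not (-1.25, edgeR adjusted p = 0.438). The exact permutation p was 0.1 for both, the smallest that 3 against 3 libraries allow, and 16% of genes were separated downward. With KU55933 replicate 3 left out, the Il21r difference passed (edgeR adjusted p = 0.0393). These comparisons share the KU55933 and ATM-/- libraries with those above, and the sequencer differs between these groups too.

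**Figure D3:**
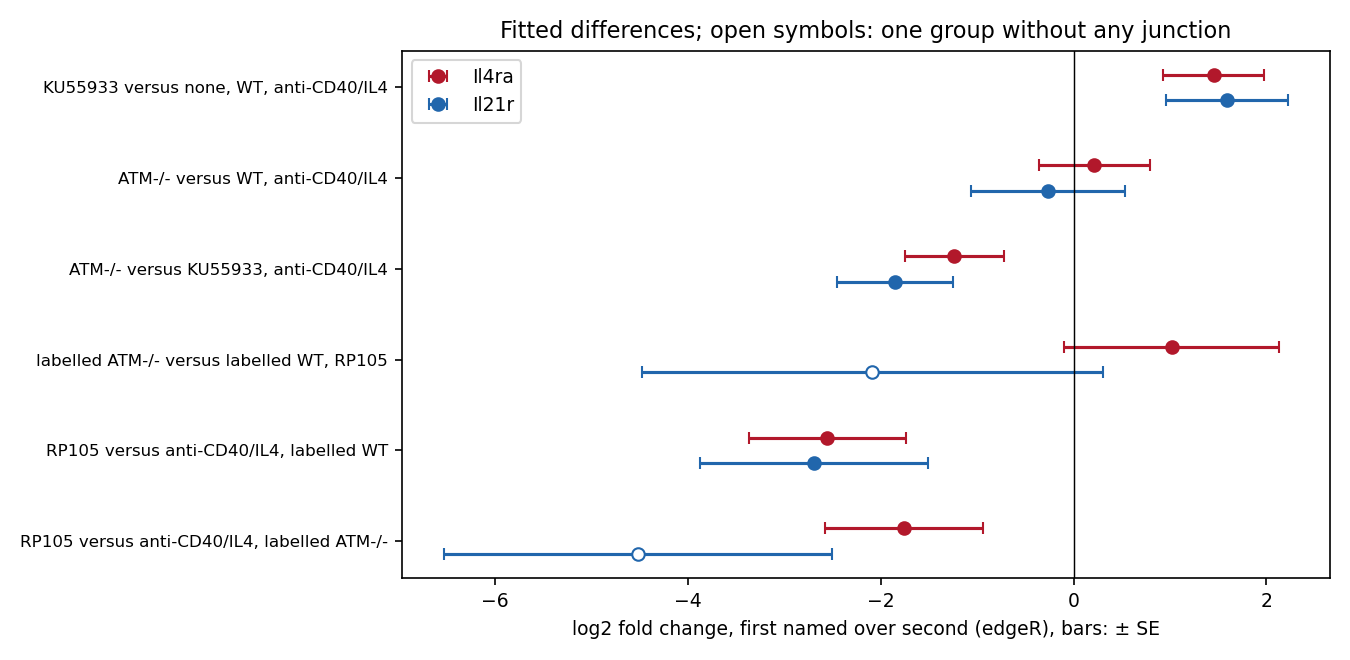
Log2 fold change (x axis, first named group over the second) with its SE from edgeR for Il4ra (red) and Il21r (blue) in each comparison (y axis). Open symbols mark fits in which 1 group had no junction. KU55933 over untreated WT stands at 1.45 and 1.59, and ATM-/- over WT at 0.22 and -0.26.

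RP105 stimulation, which engages a Toll-like receptor homologue without added IL4, left few junctions in the receptor genes. In libraries labelled ATM-/-, Il4ra had 1, 0 and 3 junctions (0.171%, 0% and 0.260%) under RP105, against 16, 17 and 5 (0.730%, 0.626% and 0.262%) under anti-CD40/IL4. In libraries labelled WT it had 0, 0 and 4 junctions (0%, 0% and 0.160%) under RP105, against 9, 1, 6 and 5 (0.689%, 0.110%, 0.398% and 0.684%) under anti-CD40/IL4. A library at 0 allows a share of up to 0.185% to 0.403% (3 junctions of its total), so single libraries at 0 do not exclude the level of the lowest anti-CD40/IL4 libraries. Il21r had 0 of 2486 pooled junctions in libraries labelled ATM-/-, which allows up to 0.121%, and 1 of 5076 in libraries labelled WT.

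Il4ra in libraries labelled WT had the lowest adjusted p of these comparisons, and it did not pass. It averaged 0.0534% ± 0.0925 under RP105 and 0.470% ± 0.276 under anti-CD40/IL4 (SD, n = 3 and 4), a log2 fold change of -2.56 (SE 0.81, edgeR adjusted p = 0.0695). In libraries labelled ATM-/- it averaged 0.143% ± 0.132 under RP105 and 0.539% ± 0.246 under anti-CD40/IL4 (SD, n = 3 each), a log2 fold change of -1.76 (SE 0.82, edgeR adjusted p = 0.397). That Il4ra contrast passed with TMM (-3.15, edgeR adjusted p = 0.00464) and with DESeq2 (-4.21, adjusted p = 0.00144). Both scalings also moved the median of all genes down, from -0.51 to -1.73 with TMM and -2.41 with DESeq2. Relative to the median Il4ra stood at -1.42 and -1.81, against -1.24 with junctions outside chromosome 15 as library size. Of all junctions the Il4ra means labelled ATM-/- were 0.0147% ± 0.0141 under RP105 and 0.166% ± 0.0666 under anti-CD40/IL4. For Il21r labelled WT the log2 fold change was -2.69 (SE 1.18, edgeR adjusted p = 0.197). For Il21r labelled ATM-/- there were 0 of 2486 pooled junctions under RP105 and 9 of 6818 under anti-CD40/IL4. Taking 3 junctions as the floor over the RP105 group and the anti-CD40/IL4 share as observed, its share was at least 1.09-fold lower. The counting interval of the pooled ratio, 0 to 1.39, includes equal shares. In each of these comparisons 1.85% of 162 genes passed, and 10.5% labelled ATM-/- and 15.4% labelled WT had an unadjusted p under 0.05. Under RP105 every library lay below every anti-CD40/IL4 library for both genes in ATM-/- as labelled, as in 13.6% of genes (for Il4ra narrowly, 0.260% against 0.262%), and for Il21r in WT as labelled, as in 3.7% of genes (exact permutation adjusted p = 0.523 and 0.463).

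All but 1 of the RP105 junctions came from replicate 3 of each label, which shared a run and 2 Il4ra positions. Without positions shared within a run, 2 Il4ra junctions remained in each label under RP105, at 0.0920% ± 0.0888 labelled ATM-/- and 0.0283% ± 0.0491 labelled WT (SD, n = 3 each). The Il4ra difference in libraries labelled WT then passed (log2 -3.39, edgeR adjusted p = 0.011). It also passed without RP105 replicate 3 (adjusted p = 0.00509), although both remaining RP105 libraries were then at 0, and without anti-CD40/IL4 replicate 2. Between the labels under RP105 the log2 fold change of ATM-/- over WT was 1.02 (SE 1.11, edgeR adjusted p = 0.763) for Il4ra. It was 0.15 with TMM and ran from 0.021 to 4.76 with 1 library left out, with no value passing. In the run of the RP105 libraries numbered 3, the Il4ra shares were 0.260% labelled ATM-/- (3 junctions) and 0.160% labelled WT (4 junctions). In the other RP105 run with both labels they were 0.171% (1 junction) and 0% labelled ATM-/- and 0% labelled WT. No gene of the 162 passed there (0%, 2.47% at an unadjusted p of 0.05, DESeq2 0). The interaction (ATM-/- over WT as labelled under RP105, less the same contrast under anti-CD40/IL4) was 0.80 (SE 1.23) for Il4ra and -1.82 (SE 2.30) for Il21r on the log2 scale, with edgeR adjusted p of 0.832 and 0.788. There 0% of genes passed, and 7.41% at an unadjusted p of 0.05. The KU55933 libraries, sequenced on MiSeq like those of RP105, were the highest for both genes, and the RP105 libraries included the lowest. Those 2 sets also differ in stimulus, inhibitor and times of infection and harvest, and the effect of the sequencer was not tested.

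In ATM-/- and KU55933 libraries most Il4ra junctions, and in KU55933 libraries most Il21r junctions, were on the plus strand, the orientation in which both genes are transcribed. Strand here is the direction in which the prey read runs from the join. It does not say which DNA strand was broken. In Il4ra, 13 of 16, 16 of 17 and 4 of 5 junctions were on the plus strand in ATM-/- libraries. It was 45 of 57, 59 of 77 and 40 of 51 in KU55933 libraries, and 4 of 9, 0 of 1, 3 of 6 and 4 of 5 in WT libraries. Pooled, the plus strand held 86.8% in ATM-/- (exact 95% binomial interval 71.9 to 95.6), 77.8% with KU55933 (71.2 to 83.6) and 52.4% in WT (29.8 to 74.3). All junctions outside chromosome 15 were 48.4% to 52.2% on the plus strand in every library. In Il21r, 55 of 69 junctions with KU55933 were on the plus strand (79.7%, interval 68.3 to 88.4), against 3 of 7 in WT, and 5 of 9 were in ATM-/-.

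The difference in strand between groups did not pass. For Il4ra the mean plus share was 78.0% ± 1.22 with KU55933 and 43.6% ± 33.0 in WT (SD, n = 3 and 4, exact two-sided permutation p = 0.143, adjusted p = 0.571). ATM-/- libraries averaged 85.1% ± 7.82 (exact permutation p = 0.0857 against WT, adjusted p = 0.571 over the 8 tests). For Il21r the mean was 79.6% ± 3.59 with KU55933 and 50.0% ± 57.7 in WT (exact permutation p = 0.429), in which each library had 1 or 2 junctions. Beyond 3 kb of the Il4ra start there were 47 junctions on the plus strand and 9 on the minus strand over all groups. The median distance was 1608 bases on the plus strand and 1299 on the minus strand.

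Some other AID off-target genes leaned the same way relative to their own transcription in KU55933 libraries. Pim1, a plus-strand kinase gene, had 67 of 94 junctions with prey in its sense orientation (71.3%), and Aff3, a minus-strand gene, had 21 of 27 (77.8%). Bcl6, a transcriptional repressor of germinal centre B cells, had 24 of 40 (60.0%), and Pax5, the factor that sets B cell identity, had 18 of 34 (52.9%). These counts pool the libraries of a group, and their intervals cover counting error only. The intervals of Bcl6 and Pax5 include an even split. So do those of Pim1 in ATM-/- (15 of 24) and WT (9 of 16), and of Pax5 in ATM-/- (6 of 12). Cd83, with 41 junctions in KU55933 libraries, was not examined for orientation.

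**Figure D4:**
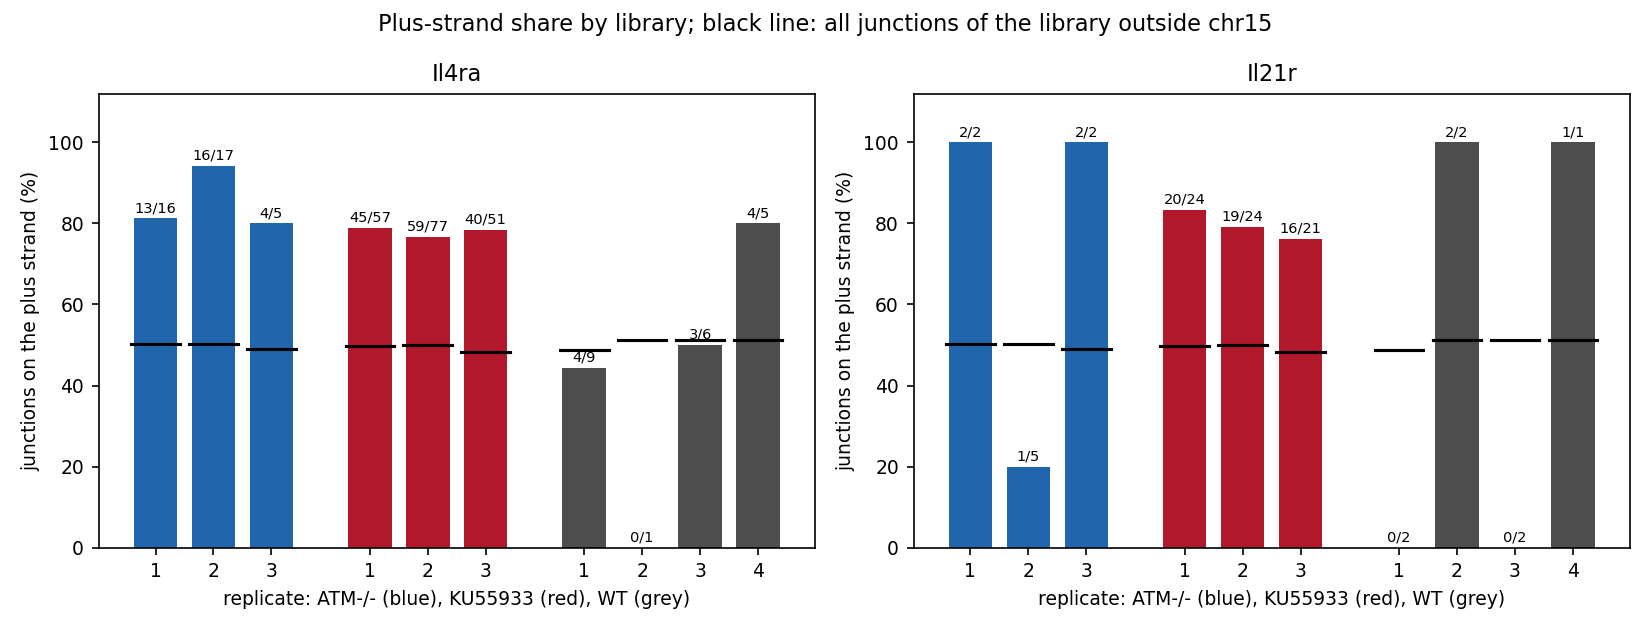
Plus-strand share of junctions (%, y axis) in Il4ra (left) and Il21r (right) for each anti-CD40/IL4 library (x axis, replicate number; ATM-/- blue, KU55933 red, WT grey), with counts above the bars. The black line marks all junctions of that library outside chromosome 15, between 48.4% and 51.3%. KU55933 libraries stand between 76.2% and 83.3% for both genes.

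Il4ra and Il21r were set beside other genes of the cytokine receptor pathway. Of 36 listed genes that are not members (receptor chains, JAK kinases, STAT factors and their targets and inhibitors), 20 had at least 1 junction under their own label. Of these, 3 reached the 10 needed for the test. Il4i1, on this list and the next, was found only in the joint label Nup62-il4i1 /// Il4i1. That label had at least 30 junctions and is left out of the counts of both lists. Socs2, an inhibitor of cytokine signalling, had 0.0398% ± 0.0372 in ATM-/-, 0.156% ± 0.0894 with KU55933 and 0.0275% ± 0.0549 in WT. Cish, another inhibitor of the family, had 0.0427% ± 0.0459, 0.116% ± 0.0478 and 0.0533% ± 0.0663 in the same groups. Fcer2a, the low-affinity IgE receptor induced by IL4, had 0.0746% ± 0.0295, 0.132% ± 0.0716 and 0.104% ± 0.144 (SD, n = 3, 3 and 4). The log2 fold change of KU55933 over WT was 2.43 (SE 1.17) for Socs2, 1.20 (SE 1.07) for Cish and 0.18 (SE 0.86) for Fcer2a, and none passed. Socs2 and Cish met the minimum only through KU55933 libraries, which held 21 of 25 and 16 of 21 of their junctions. Among the signalling chains, Jak1 and Jak2 had 1 junction each, Stat3 had 1 and Stat5b had 3.

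The list of AID off-target genes includes both receptor genes and was drawn up with earlier results of these data known. Of its 38 genes, 31 had a junction under their own label and 14 were tested. Of these 14, 13 had a positive log2 fold change of KU55933 over WT, with a median of 1.06, against 62.3% of all 162 genes and a median of 0.48. None passed. Without Il4ra and Il21r it was 11 of 12, with a median of 0.81. Bcl6, Zfp36l1, Fli1, Birc3, Cd79b, Ebf1 and Irf4 met the minimum of 10 junctions only through KU55933 libraries. These held 40 of 46, 9 of 11, 16 of 23, 9 of 14, 7 of 13, 6 of 10 and 6 of 12 of their junctions. For such genes the minimum favours a positive sign of KU55933 over WT, so the counts of signs carry no test. For ATM-/- over WT, 8 of the 14 were positive with a median of 0.10, against 50.0% of all genes. For ATM-/- over KU55933, 1 of 14 was positive, against 44.4% of all genes, and Bcl6 had the lowest adjusted p in that list (log2 -3.01, SE 0.87, edgeR adjusted p = 0.0945). Here the minimum favours a negative sign for the genes that met it only through KU55933 libraries, Bcl6 among them. Pim1, the gene of the list with most junctions after Il4ra, stood at 0.86 (SE 0.54) for KU55933 over WT and -0.09 (SE 0.61) for ATM-/- over WT.

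**Figure D5:**
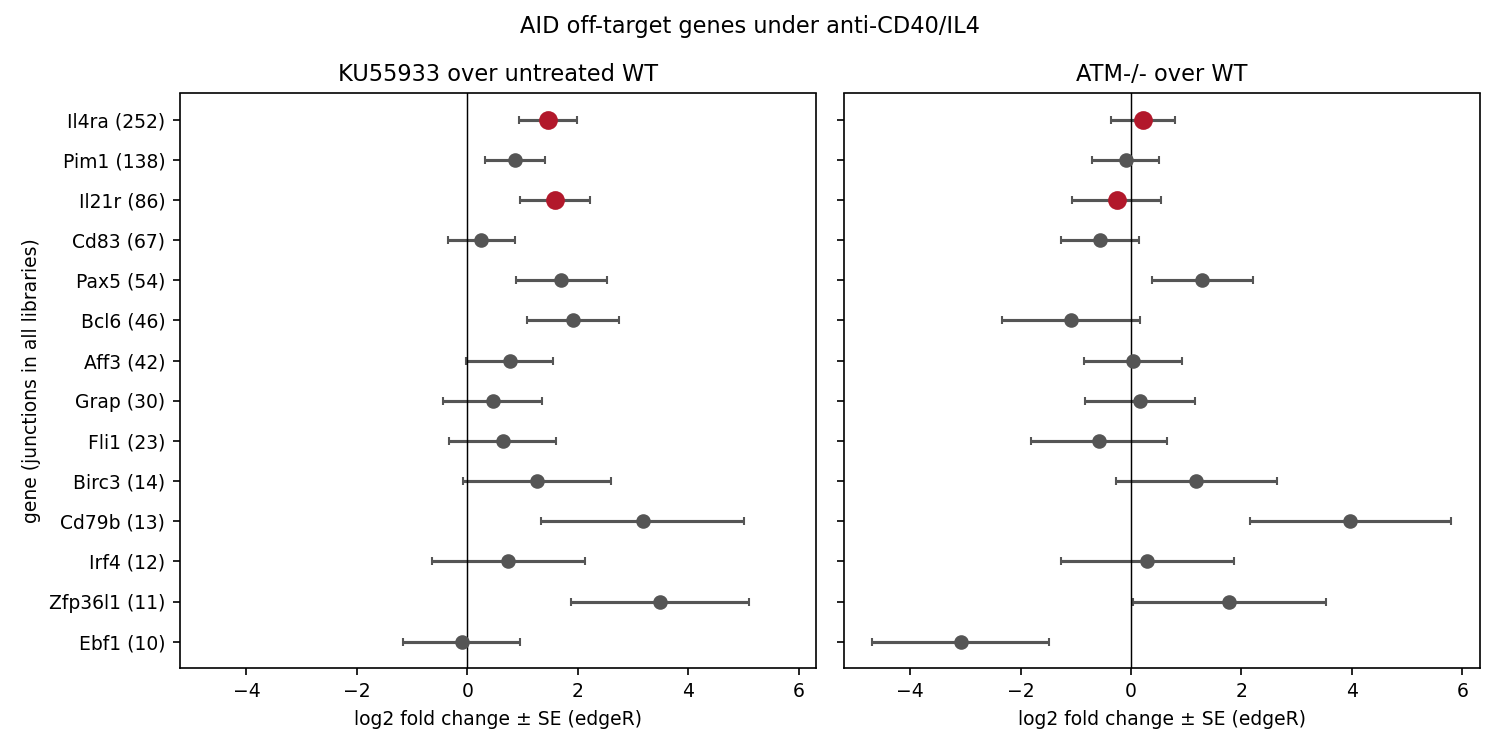
Log2 fold change ± SE (x axis, edgeR) of the 14 tested AID off-target genes (y axis, ordered by junctions in all libraries, in brackets) for KU55933 over untreated WT (left) and ATM-/- over WT (right) under anti-CD40/IL4. Il4ra and Il21r are in red. On the left 13 of 14 genes lie above 0, and on the right 8 of 14.

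Across the 16 libraries the pair followed each other. On the scale log2(junctions per 1000 outside chromosome 15 + 1), Il4ra and Il21r correlated with Pearson r = 0.824. Among 29 genes with at least 30 junctions, the genes nearest to Il4ra were Sg1 (0.835), Arid5a (0.834), Il21r, Pim1 (0.790) and the joint label Nup62-il4i1 /// Il4i1 (0.784). Those nearest to Il21r were Arid5a (0.888), Pim1 (0.841), Il4ra, Sg1 (0.821) and Bcl2l1 (0.793). The 16 libraries differ between groups in stimulus, inhibitor, sequencer and depth, so these correlations include the differences between groups. They carry no test.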

How the data were processed

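Junction lists of 16 HTGTS libraries were used. Per the file headers, the authors deposited 1 junction per line with the mm9 prey position, strand and a gene label. The sources used here do not name the aligner and filters. The deposited values are positions (unit other), and the older files also hold a read count per junction, which was not used. Lines equal in every position column (56), 3 mitochondrial lines and 1 broken record were dropped. Of the junctions outside chromosome 15, 45.0% had no gene label. The members and gene lists were chosen with earlier results of these data known. Named genes were both receptor genes, the 5 most correlated with each, every labelled neighbour within 500 kb, and list members with at least 10 junctions.

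Junctions per gene were tested with edgeR 4.0.16 (quasi-likelihood, R 4.3.3) in 1 fit of 16 libraries. Library size was the number of junctions outside chromosome 15. The fit took at least 10 junctions per gene and Benjamini-Hochberg adjustment over 162 genes (threshold 0.05). Shares were compared by two-sided exact permutation over libraries for all 162 genes, and position and strand shares in a family of 8 tests. Intervals are Clopper-Pearson at 95% and cover counting error only. Some items are not reported here. Replicate numbers came from the labels. All 3 same-numbered pairs of ATM-/- and KU55933 libraries had correlated deviations (0.14 to 0.55), and in the other 9 pairs of groups not every pair was over 0.1. Gene starts came from matching RefSeq promoter ends to read bases. On simulated counts for KU55933 against WT, the fit recovered 18.8% of 4-fold and 68.1% of 8-fold changes among 162 genes. Alternatives were TMM, DESeq2 1.42.0, limma 3.58.1 voom, other library sizes, count minimums, windows and denominators, a replicate or run block, and each library left out.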

Additional observations from a re-analysis of the deposited data

How the results depend on the processing

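Most results kept their direction and their side of the threshold. Of the edgeR results, 97 of those with 1 library left out did so, as did 132 under other alternatives. For KU55933 over WT the log2 fold change with TMM was 2.22 for Il4ra and 2.34 for Il21r, past the threshold, with 10 genes passing in place of 1. With at least 30 junctions per gene Il4ra passed at 1.45 (adjusted p = 0.0447, 29 genes tested), and DESeq2 passed none of 162. Il21r for ATM-/- over KU55933 passed at -1.86 with at least 30 junctions and at -1.85 with the replicate block. Same-numbered libraries deviated together only between ATM-/- and KU55933. In the other 9 pairs of groups some or all correlations were 0.1 or less (lowest -0.40), so there the replicate block is a description, and it changed no other call of these genes. For ATM-/- over WT, signs turned with TMM (Il21r 0.44), with the run as a block (Il21r 0.19, Il4ra -0.13), and for the Il21r share with all junctions as denominator (0.0132 points). No ATM-/- over WT value passed under any alternative run.

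For RP105 over anti-CD40/IL4, Il4ra labelled WT passed with DESeq2 (-4.15), with library size beyond 1 Mb of the break (-2.96), at least 30 junctions (-2.56), only the groups compared (-2.50), a random run block (-2.71) and without positions shared in a run (-3.39). Il21r labelled WT passed with DESeq2 (-4.44) and the random run block (-2.17). Labelled ATM-/-, both genes passed with TMM (-3.15 and, for Il21r, -4.86) and with DESeq2 (-4.21 and -4.84). DESeq2 took its scale from 1 gene, the only one with a junction in every library, and placed the median of all genes at -2.41. Il21r fits that meet only zeros are no bounds. The random run block turned Il21r between labels under RP105 (0.39) and in the interaction (0.87), and TMM (-0.80) and DESeq2 (-0.061) turned the Il4ra interaction. The random run block and the positions shared in a run were added after seeing the data.

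Leaving out 1 library, the Il4ra difference of ATM-/- over WT ran from -0.074 to 0.52 on the log2 scale and from -0.0508 to 0.208 points of share. Il21r for ATM-/- over KU55933 ran from -2.25 to -1.59, and Il4ra for RP105 over anti-CD40/IL4 labelled WT from -6.30 to -2.04. The interaction ran from -2.28 to 0.26 for Il21r and from -0.19 to 4.54 for Il4ra. The Il21r share within 2 kb, KU55933 over WT, ran from -12.1 to 21.2 points. Within 1 kb that difference was 24.6 points (exact permutation p = 0.0286, unadjusted). For ATM-/- over WT the Il21r difference was 6.67 points within 1 kb and 25.0 within 5 kb, and the Il4ra difference 2.92 within 5 kb, each of opposite sign to that within 2 kb. The cause of these changes was not tested. Depth limits the WT values: these libraries held 1 to 9 Il4ra and 1 or 2 Il21r junctions.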
